A study of Mus musculus with 22 samples.

Results

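The 10 genes described here encode the enzymes of serine synthesis and of folate-carried one-carbon metabolism, in the mouse spinal cord. They were chosen by name, with earlier results of these data known, so counts of members under a threshold are not independent evidence. They were found by gene symbol, and they are 10 of the 38924 gene IDs in the files. Phgdh, Psat1 and Psph make up the serine synthesis branch, with 3 genes. Shmt2, Mthfd2, Mthfd2l, Mthfd1l and Aldh1l2 make up the mitochondrial folate branch, with 5 genes, and Shmt1 and Mthfd1 the cytosolic folate branch, with 2. All 10 passed the filter on low counts, which left 16974 genes for testing.

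Serine is made from a glycolytic intermediate, 3-phosphoglycerate, in consecutive steps catalysed by PHGDH, PSAT1 and PSPH. Serine hydroxymethyltransferase then moves a carbon from serine to tetrahydrofolate and releases glycine, with SHMT2 in mitochondria and SHMT1 in the cytosol. In mitochondria the folate-bound carbon is oxidised by MTHFD2 or MTHFD2L and released as formate by MTHFD1L, or oxidised to carbon dioxide by ALDH1L2. In the cytosol the trifunctional enzyme MTHFD1 recaptures formate for purine, thymidylate and methionine synthesis. In the nervous system PHGDH is best known from astrocytes and radial glia, and inherited defects of serine synthesis in people cause severe neurological disease. Several of these genes are known targets of ATF4, which the cell makes more of when translation initiation is held back under stress.

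RNA sequencing of polyA RNA was done on whole spinal cord at 7 months of age, on a mixed B6N;B6J background. HOM mice carried E196K on both alleles of Yars, which encodes the synthetase that charges tyrosine tRNA (10 libraries), HET mice carried it on 1 allele (6 libraries) and WT mice had no mutant allele (6 libraries). The labels name no promoter or Cre line, and all 3 groups share age, tissue and background. The labels do not say that each library is a separate mouse, so p-values measure only the spread between these libraries. Yars, whose transcript level does not test the genotype labels, averaged 121 ± 6.02 CPM in HOM, 115 ± 4.38 CPM in HET and 113 ± 3.77 CPM in WT (all SD). CPM is a count relative to the TMM-scaled library size and is used for a gene across libraries, and TPM, which also divides by transcript length, is used between genes.

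Libraries held 24448477 to 42805931 rounded counts, and all 22 entered the fit. Markers of neurons, astrocytes, oligodendrocytes and microglia were present in every library. Library HOM 3 stood apart, with a summed level of 5 Schwann cell markers of 2988 CPM, where the HOM median was 75.0 CPM and the highest HET and WT libraries had 81.3 and 82.1 CPM. It also had the highest summed neutrophil markers, 257 CPM, where the HOM median was 1.29 CPM, and the lowest summed astrocyte, oligodendrocyte and neuron markers of the HOM libraries. Each library title starts with 1 of 3 numbers whose meaning is not stated, 39992, 40411 and 40412. These prefixes held 5 HOM and 1 WT library, then 3 HOM, 1 HET and 2 WT libraries, then 2 HOM, 5 HET and 3 WT libraries.

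RefSeq promoter windows (GRCm38.p6, from 250 bases before the gene start to 50 after it) were at hand for 9 of the 10 genes, all but Aldh1l2, with 2 windows for Psat1 and 10 in all. The gene start is that of RefSeq. For Mthfd2, Psat1 and Shmt1 the windows lie inside the gene as the GENCODE M21 annotation places it. The windows of the 4 genes with the smallest p-values in HOM against WT are shown, so that the promoters of the members that differed most can be read beside their values. Capitals mark, on either strand, the cAMP response element half-site TGACG, the CCAAT box CCAAT and the GC box GGGCGG, none of them overlapping another in these windows. The windows are Psph at chr5:129787204-129787503 on the minus strand, Shmt2 at chr10:127522395-127522694 on the minus strand, Mthfd1l at chr10:3972825-3973124 on the plus strand and Mthfd2 at chr6:83317555-83317854 on the minus strand, each read 5′ to 3′ along the gene.
Psph: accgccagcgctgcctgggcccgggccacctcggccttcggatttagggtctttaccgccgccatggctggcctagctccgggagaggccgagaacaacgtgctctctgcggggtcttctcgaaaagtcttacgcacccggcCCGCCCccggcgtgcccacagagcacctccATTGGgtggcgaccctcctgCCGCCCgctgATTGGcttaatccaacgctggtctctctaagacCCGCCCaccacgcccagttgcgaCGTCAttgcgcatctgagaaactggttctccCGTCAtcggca
Shmt2: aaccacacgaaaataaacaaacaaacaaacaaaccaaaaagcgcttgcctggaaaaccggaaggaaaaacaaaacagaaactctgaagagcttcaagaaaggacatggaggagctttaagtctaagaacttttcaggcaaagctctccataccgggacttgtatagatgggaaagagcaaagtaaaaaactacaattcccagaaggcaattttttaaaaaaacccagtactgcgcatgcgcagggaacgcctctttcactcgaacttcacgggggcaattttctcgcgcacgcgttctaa
Mthfd1l: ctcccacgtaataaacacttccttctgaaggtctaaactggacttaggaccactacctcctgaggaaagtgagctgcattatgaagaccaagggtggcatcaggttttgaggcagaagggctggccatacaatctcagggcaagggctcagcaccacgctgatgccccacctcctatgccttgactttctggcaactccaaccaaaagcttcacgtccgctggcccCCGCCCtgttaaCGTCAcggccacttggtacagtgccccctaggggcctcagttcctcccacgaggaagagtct
Mthfd2: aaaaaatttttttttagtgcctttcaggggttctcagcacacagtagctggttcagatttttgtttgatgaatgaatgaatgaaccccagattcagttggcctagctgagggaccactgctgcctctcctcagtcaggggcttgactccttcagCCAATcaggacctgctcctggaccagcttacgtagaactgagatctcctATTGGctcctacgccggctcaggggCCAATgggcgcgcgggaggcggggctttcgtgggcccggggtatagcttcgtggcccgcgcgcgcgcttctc
The half-site TGACG stood 2 times in the Psph window, at positions 9 and 40 after the gene start, and 1 time in the Mthfd1l window, and it occurred in 20.8% of all 32851 windows. CCAAT stood 2 times in the Psph window and 3 times in the Mthfd2 window and occurred in 37.4% of all windows. The GC box stood 3 times in the Psph window and 1 time in the Mthfd1l window and occurred in 35.7% of all windows. The Shmt2 window held none of these letters and had a GC content of 42.7%, where the other windows shown had 55.3% to 65.0%. The core TGATGNAA of the composite element bound by ATF4 with C/EBP partners was in 0 of the 10 windows and in 3.97% of all windows, and the E-box CACGTG was in 0 of the 10 and in 7.15% of all. Windows not shown held the marked letters as well. Shmt1 had 1 half-site, 1 CCAAT and 4 GC boxes, Mthfd1 had 1 CCAAT and 1 GC box, and Mthfd2l had 1 GC box. Phgdh had 2 CCAAT, and of the 2 Psat1 windows 1 had 3 CCAAT and the other 2 GC boxes. A match is a description of letters and not a binding site.

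The levels of the 10 transcripts per length differed widely, with Psat1 highest and Shmt1 lowest in each genotype, and only Shmt2 and Psph changed places in the order between genotypes. Psat1, the aminotransferase of the middle step of serine synthesis, was the most abundant at 154 ± 12.7 TPM in HOM, 147 ± 7.88 TPM in HET and 141 ± 9.12 TPM in WT (SD, n = 10, 6 and 6). Phgdh, the dehydrogenase of the first step, followed at 93.6 ± 9.14 TPM in HOM, 91.2 ± 6.23 TPM in HET and 86.4 ± 7.93 TPM in WT. In no genotype did the range of Psat1 overlap that of Phgdh, or that of Phgdh the next gene, Mthfd1.
Mthfd1 averaged 29.7 TPM in HOM, 29.1 TPM in HET and 29.3 TPM in WT, and Mthfd2 24.2 TPM in HOM, 22.4 TPM in HET and 20.8 TPM in WT. Shmt2 averaged 18.3 TPM in HOM, 16.4 TPM in HET and 15.4 TPM in WT, and Psph, the phosphatase of the last step of serine synthesis, 17.4 TPM in HOM, 16.4 TPM in HET and 14.5 TPM in WT. The ranges of Shmt2 and Psph overlapped in every genotype, so these neighbours in the order did not differ beyond their spread. Below them came Mthfd2l at 10.9 TPM in HOM, 10.5 TPM in HET and 10.2 TPM in WT, then Mthfd1l, then Aldh1l2, and last Shmt1 at 2.17 TPM in HOM, 2.47 TPM in HET and 2.80 TPM in WT. Mthfd1l and Aldh1l2 overlapped in HET and WT but not in HOM.

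**Figure D1:**
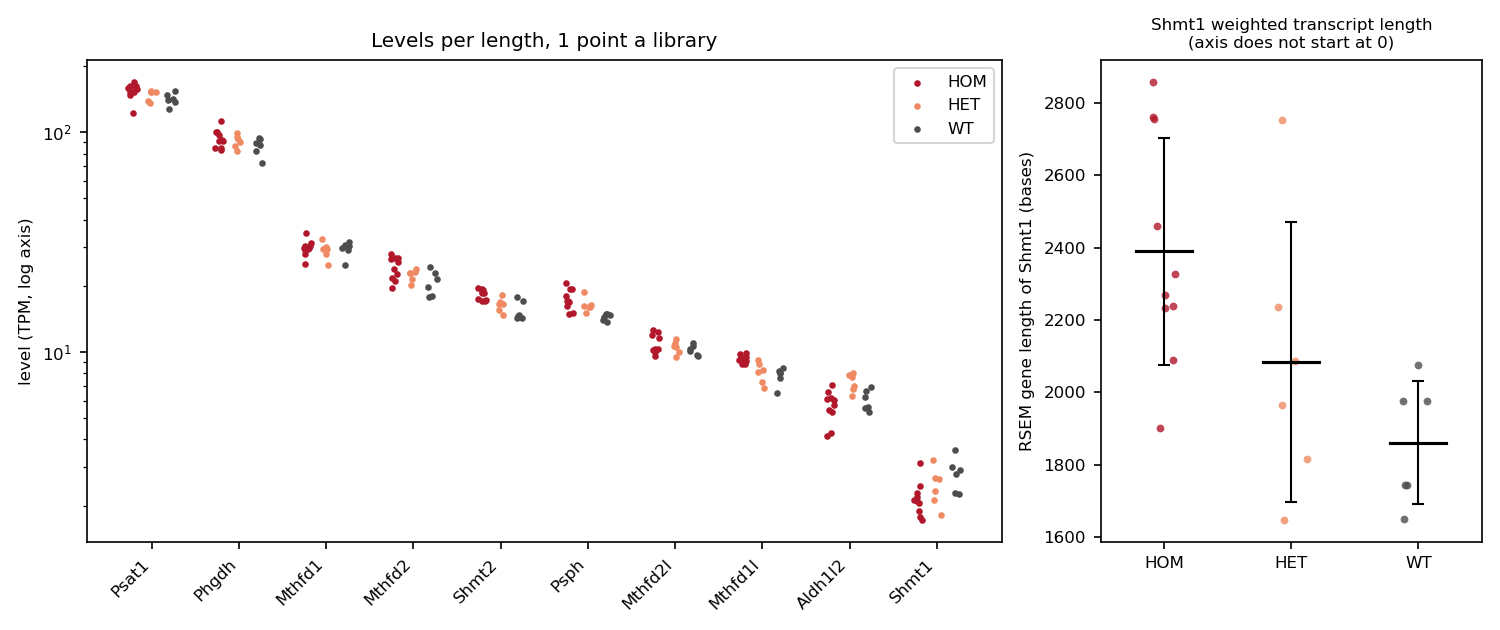
Left, TPM of each gene in each library on a log axis, ordered by the mean over all libraries, with HOM, HET and WT side by side; Psat1 and Phgdh stand above the rest and Shmt1 lowest. Right, the length that RSEM assigned to Shmt1 in each library in bases, with a line for the mean and error bars for the SD, on an axis that does not start at 0; the HOM mean is 2389 bases and the WT mean 1861 bases.

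Homozygous against wild type cords is the full contrast of the design, and here the members' differences were small. None of the 10 members passed at an adjusted p under 0.05, where 0.0943% of the 16974 genes did (16 genes, edgeR's quasi-likelihood test with Benjamini-Hochberg adjustment over all genes). At an unadjusted p under 0.05 there were 4 of 10 members, Shmt2, Mthfd1l, Psph and Mthfd2, where 5.91% of all genes had one. All 4 had higher means in HOM, but the members were chosen with earlier results of these data known. DESeq2 called 2 members, Shmt2 (adjusted p 0.00549) and Mthfd1l (0.0212), where it called 28 of the 16974 genes. The fitted log2 fold change was above 0 for 7 members and below 0 for 3, and its median over the members was 0.08, against 0.0065 over all genes tested. By branch the median was 0.09 for serine synthesis, 0.20 for mitochondrial folate and -0.01 for cytosolic folate.

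**Figure D2:**
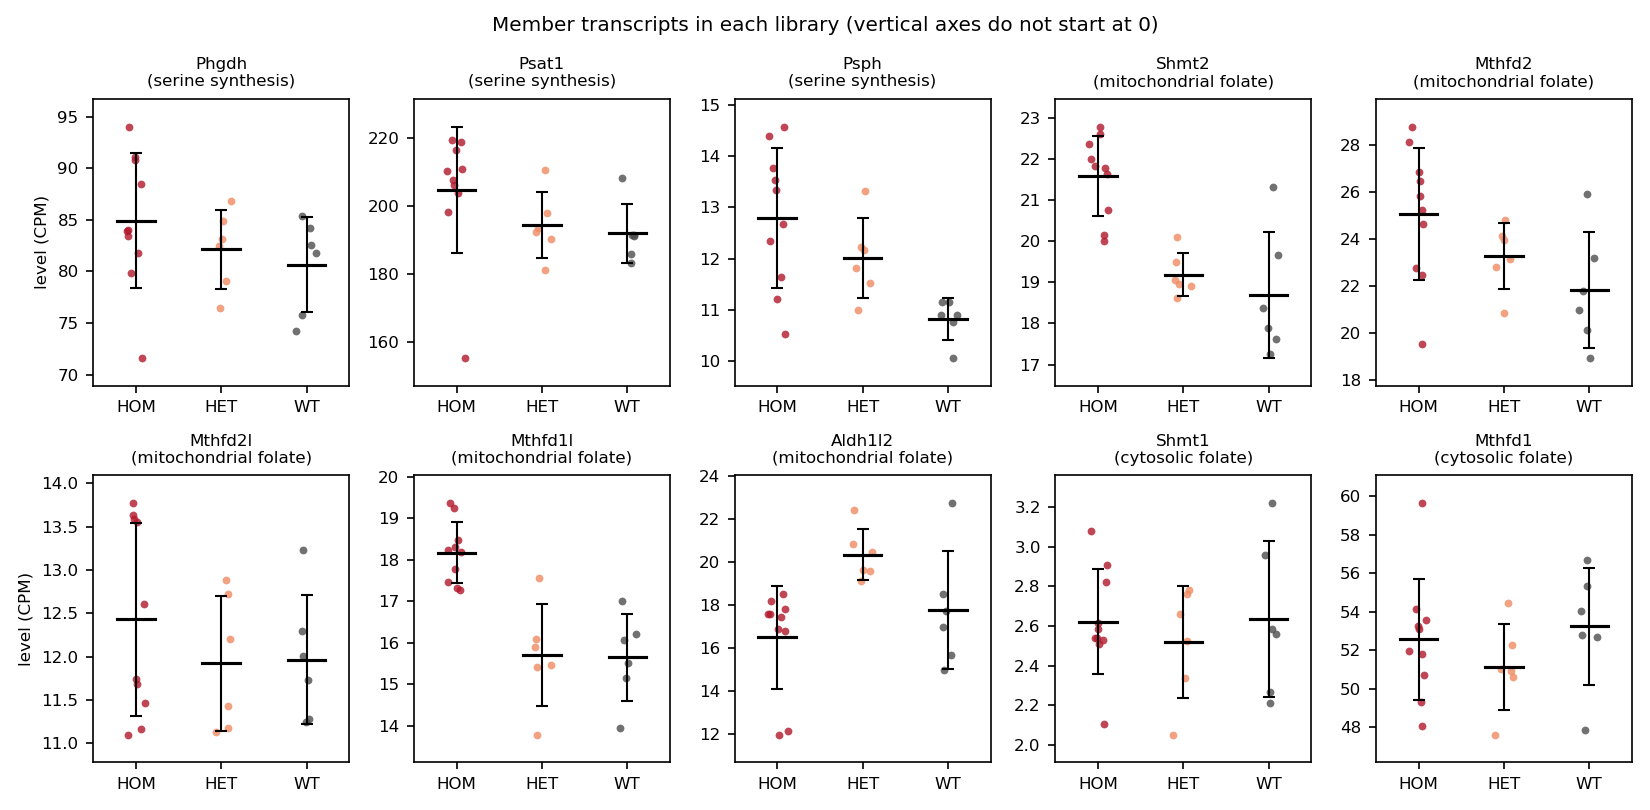
CPM of each gene in each library (points), by genotype in the order HOM, HET, WT, with a line for the mean and error bars for the SD, on axes that do not start at 0. The 10 HOM libraries of Mthfd1l all lie above the highest WT library, and the 10 HOM libraries of Aldh1l2 all lie below the lowest HET library.

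In the mitochondrial branch, Shmt2, which feeds serine carbon into mitochondrial folate, had the smallest p-value of the members. Shmt2 had 20.01, 21.8 and 22.8 CPM in HOM (lowest, median and highest of 10), 18.6, 19.0 and 20.1 CPM in HET (of 6) and 17.3, 18.1 and 21.3 CPM in WT (of 6). In 7 of 10 HOM libraries the level was above the highest WT library, WT 4, and in 10 of 10 it was above the WT mean. Shmt2 averaged 21.6 ± 0.9753 CPM in HOM and 18.7 ± 1.53 CPM in WT (SD), a log2 fold change of 0.21 (1.16-fold, SE 0.0425, p = 5.21e-05), and it stood at rank 17 of all genes by p, where its adjusted p of 0.052 by edgeR just missed the threshold. Without WT 4 the log2 fold change was 0.24 and the adjusted p by edgeR 0.00369. The adjusted p was also under the threshold without HOM 7 (0.0388) or HOM 8 (0.0279). Shmt2 passed in only 3 of 22 fits that left out 1 library, and its adjusted p by edgeR reached 0.255 without WT 1. In bulk tissue a difference in the number of cells of a type and a difference in RNA per cell cannot be told apart, here or below.
Mthfd1l, the mitochondrial enzyme that releases formate, had no overlap between HOM and WT. Mthfd1l had 17.3, 18.2 and 19.4 CPM in HOM (lowest, median and highest of 10), 13.8, 15.7 and 17.6 CPM in HET and 13.9, 15.8 and 17.0 CPM in WT. All 10 HOM libraries were above the highest WT library, WT 2, a separation in the higher direction that 0.118% of all genes tested showed (20 genes). The log2 fold change was 0.21 (1.16-fold, SE 0.0465, p = 1.07e-04), and the adjusted p of 0.0955 by edgeR missed the threshold. It passed without WT 2 (adjusted p 0.0476 by edgeR), without HET 1 (0.0497) or without HET 4 (0.0377), and reached 0.365 without WT 5.
Mthfd2, the dehydrogenase and cyclohydrolase best known from proliferating cells, had 19.6, 25.5 and 28.8 CPM in HOM (lowest, median and highest), 20.9, 23.6 and 24.8 CPM in HET and 18.9, 21.4 and 25.9 CPM in WT. The groups overlapped, with 4 of 10 HOM libraries above the highest WT library and 9 of 10 above the WT mean. Its log2 fold change was 0.20 (SE 0.0719, adjusted p = 0.713 by edgeR), so the size was like that of Shmt2 and Mthfd1l while the spread was wider. Mthfd2l, its paralogue expressed in adult tissue, had 11.1, 12.2 and 13.8 CPM in HOM and 11.2, 11.9 and 13.2 CPM in WT (lowest, median and highest), with a log2 fold change of 0.06 and a 95% interval of -0.06 to 0.17.
Aldh1l2, which oxidises mitochondrial 10-formyltetrahydrofolate and forms NADPH, had the only log2 fold change below 0 in its branch. Aldh1l2 had 11.98, 17.5 and 18.5 CPM in HOM and 15.0, 17.4 and 22.7 CPM in WT (lowest, median and highest), and HOM 8 and HOM 3 were the 2 libraries below every WT library. Its log2 fold change was -0.11 (SE 0.0937, adjusted p = 0.829 by edgeR), with a 95% interval of -0.30 to 0.09.

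In the serine synthesis branch, Psph had the largest log2 fold change of the 10 members, 0.24 (1.18-fold, SE 0.0622, p = 6.80e-04, adjusted p = 0.282 by edgeR). Psph had 10.5, 13.0 and 14.6 CPM in HOM (lowest, median and highest), lay between 11.0 and 13.3 CPM in HET with a mean of 12.01 CPM, and had 10.1, 10.9 and 11.2 CPM in WT. In 9 of 10 HOM libraries the level was above the highest WT library, and the exception was HOM 3.
Psat1 had 155, 209 and 219 CPM in HOM and 183, 191 and 208 CPM in WT (lowest, median and highest), with a log2 fold change of 0.09 (SE 0.0527, p = 0.0896). Phgdh had 71.6, 84.0 and 94.0 CPM in HOM and 74.2, 82.2 and 85.4 CPM in WT, with a log2 fold change of 0.07 (SE 0.0468, p = 0.127). The groups overlapped for both. HOM 3, the library with the high Schwann cell and neutrophil markers, was the lowest HOM library for Psat1, Phgdh, Psph and Mthfd2. Without it the members at an unadjusted p under 0.05 in HOM against WT numbered 6 and no longer 4, with Psat1 at a log2 fold change of 0.13 (p = 4.335e-04) and Phgdh at 0.10 (p = 0.01885) added, Psph was at 0.27 with an adjusted p of 0.064 by edgeR, and no member passed.

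In the cytosolic branch neither gene passed, and both fitted changes of the counts were close to 0. Mthfd1 had 48.0, 52.6 and 59.6 CPM in HOM, 47.6, 51.0 and 54.5 CPM in HET and 47.9, 53.4 and 56.7 CPM in WT (lowest, median and highest), with a log2 fold change in HOM against WT of -0.02 and a 95% interval of -0.10 to 0.07. Shmt1 had 2.11, 2.56 and 3.08 CPM in HOM, 2.05, 2.60 and 2.78 CPM in HET and 2.21, 2.58 and 3.22 CPM in WT, with a log2 fold change of -0.0091 and a 95% interval of -0.21 to 0.19. For Mthfd1 the upper bound of the interval (0.065) lies below the fitted change of Shmt2, Mthfd1l, Psph and Mthfd2. These changes have intervals of their own, with lower bounds of 0.12 for Shmt2, 0.12 for Mthfd1l, 0.11 for Psph and 0.054 for Mthfd2. The intervals of Mthfd1 and Mthfd2 thus overlap. For Shmt1, with 62 to 140 counts per library, the interval is wider. Its upper bound lies just below the fitted change of Mthfd2 and above each of these lower bounds. The difference between genes or branches was not tested. The Shmt1 value depends on the scale: it was -0.41 with an offset for effective length (adjusted p = 0.695 by edgeR), and the 3 settings that divide by length each had an unadjusted p under 0.05.

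**Figure D3:**
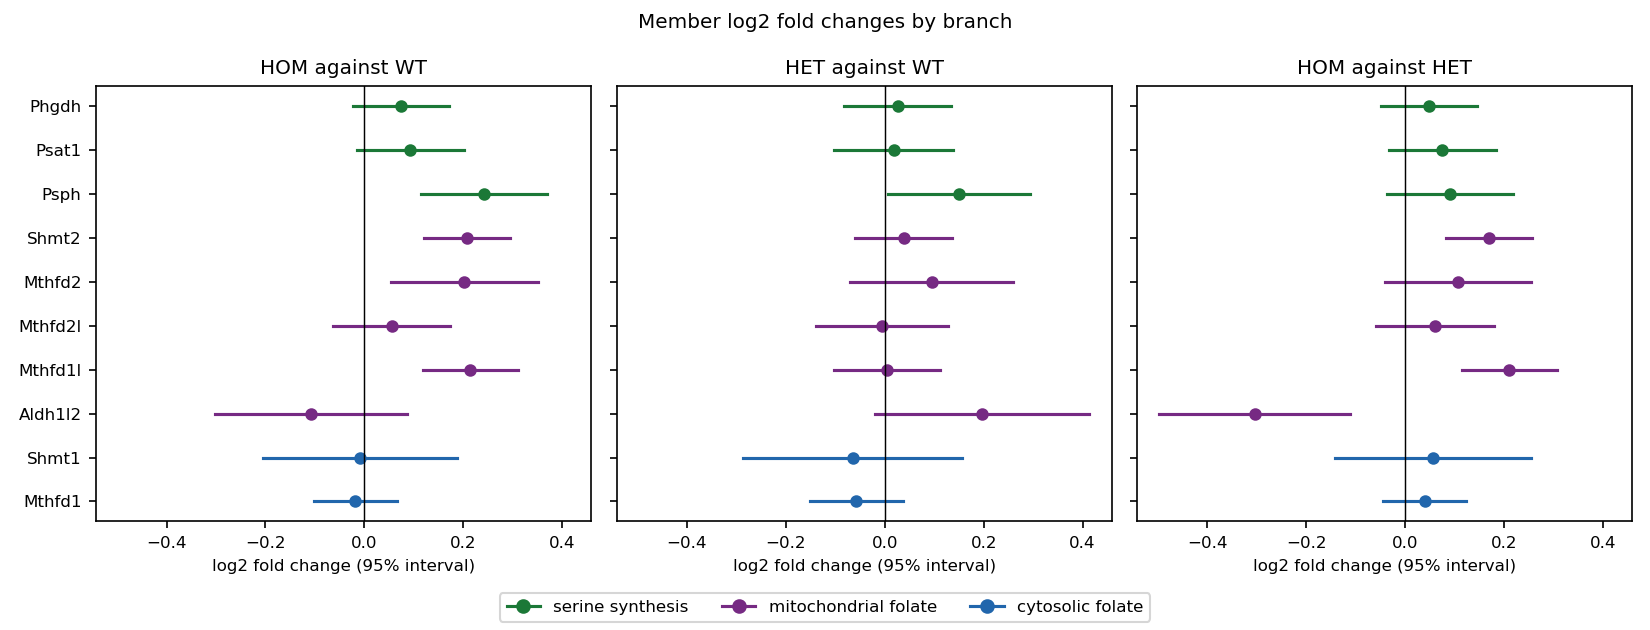
Fitted log2 fold changes (points) with 95% intervals (lines) of the 10 genes in the 3 pairwise comparisons, coloured by branch. In HOM against WT the intervals of Psph, Shmt2, Mthfd2 and Mthfd1l lie above 0, and in HOM against HET that of Aldh1l2 lies below 0.

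Differences between heterozygous and wild type cords were small in most of these genes. No member passed in HET against WT, where 0% of all genes did at an adjusted p under 0.05 by edgeR (0 also by DESeq2), and 1 of 10 had an unadjusted p under 0.05, where 3.41% of all genes had one. That member was Psph, with 12.01 ± 0.785 CPM in HET and 10.8 ± 0.403 CPM in WT (SD over 6 libraries each). Its log2 fold change was 0.15 (SE 0.0694, p = 0.040, adjusted p = 1.00 by edgeR), with 5 of 6 HET libraries above the highest WT library. Its unadjusted p was not under 0.05 with the title prefix as a term, with the 1 CPM filter or with the length offset, which left 0 members, and it was under 0.05 in 15 of 22 fits that left out 1 library. Aldh1l2 had 20.4 ± 1.19 CPM in HET and 17.8 ± 2.76 CPM in WT, with a log2 fold change of 0.20 (SE 0.104, p = 0.0718), and all 6 HET libraries were above the WT mean. The log2 fold changes of Shmt2 and Mthfd1l were 0.04 (95% interval -0.06 to 0.14) and 0.0041 (-0.10 to 0.11).

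Homozygous against heterozygous cords shares its HOM libraries with the first comparison. No member passed in HOM against HET, where 0.106% of all genes did by edgeR, and 3 of 10 had an unadjusted p under 0.05, where 8.80% of all genes had one. DESeq2 called 2 members, Shmt2 and Mthfd1l, where it called 76 of the 16974 genes. Mthfd1l averaged 18.2 ± 0.736 CPM in HOM and 15.7 ± 1.22 CPM in HET (SD), a log2 fold change of 0.21 (SE 0.0466, adjusted p = 0.0687 by edgeR), and 7 of 10 HOM libraries were above the highest HET library. HET 1 was that library, and without it the adjusted p was 0.0293 by edgeR. This was the only 1 of 22 omissions under the threshold, and without HET 6 the adjusted p of Mthfd1l was 0.214 by edgeR. Shmt2 averaged 21.6 ± 0.9753 CPM in HOM and 19.2 ± 0.531 CPM in HET, a log2 fold change of 0.17 (SE 0.0425, adjusted p = 0.133 by edgeR), and 9 of 10 HOM libraries were above the highest HET library. With the title prefix as a term the log2 fold change was 0.14 for Mthfd1l (adjusted p = 0.9996 by edgeR). For Shmt2 it was 0.17 in that fit (adjusted p = 0.608 by edgeR).
Aldh1l2 was on the other side. It averaged 16.5 ± 2.39 CPM in HOM and 20.4 ± 1.19 CPM in HET, a log2 fold change of -0.30 (0.810-fold, SE 0.093, p = 0.00334, adjusted p = 0.31 by edgeR). All 10 HOM libraries, at 18.5 CPM or less, were below the lowest HET library, at 19.1 CPM, a separation in the lower direction that 0.106% of all genes tested showed (18 genes). The 95% interval of -0.50 to -0.11 does not include 0, but the gene stood at rank 181 by p and did not pass. With the title prefix as a term the log2 fold change was -0.23 (p = 0.05152, adjusted p = 1.00 by edgeR), so 0 was no longer left out of the interval, and 5 of the 6 HET libraries share prefix 40412. All WT libraries of Aldh1l2 but WT 5 lay within the HOM range, at 14.97 to 18.50 CPM, and so below the lowest HET library. WT 5, at 22.7 CPM, was above the highest HET library, at 22.4 CPM.

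HOM was also compared with the mean of the WT and HET group means, a contrast chosen with earlier results of these data known, which shares libraries with all the others. By edgeR 2 of 10 members passed there, where 0.236% of all genes did (40 genes), and 5 of 10 had an unadjusted p under 0.05, where 9.50% of all genes had one. Shmt2 rose by 0.19 on the log2 scale (SE 0.035, adjusted p = 0.0111) and Mthfd1l by 0.21 (SE 0.0383, adjusted p = 0.00836), by the same edgeR test, and both were called with each of the 22 libraries left out in turn. Both calls ended when the title prefix was a term of the fit, with adjusted p of 0.0791 for Shmt2 and 0.249 for Mthfd1l by edgeR, and by limma on log2 TPM, with adjusted p of 0.119 to 0.122. Psph (0.17), Mthfd2 (0.15) and Aldh1l2 (-0.21) were the other 3 at an unadjusted p under 0.05.

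Within the title prefixes the direction of the leading members held, with the size uneven. HOM minus WT on the log2 scale for Shmt2 was 0.30 in prefix 39992, 0.12 in prefix 40411 and 0.22 in prefix 40412. For Mthfd1l it was 0.20, 0.15 and 0.21 in the same order, and for Psph 0.25, 0.23 and 0.19. Mthfd2 differed by 0.19, 0.28 and 0.26, and Phgdh and Psat1 were also higher in HOM within each prefix. For HOM minus HET, Mthfd1l differed by 0.04 in prefix 40411, whose only HET library was the highest HET library of this gene, and by 0.19 in prefix 40412. Aldh1l2 differed by -0.41 and -0.14 there. With 1 to 5 libraries to a genotype, a prefix gives values and no test of its own, and in HOM against WT with the prefix as a term no member passed (Shmt2 0.20, adjusted p = 0.112 by edgeR). Mthfd2l, in contrast, differed by 0.20 in prefix 39992, -0.09 in prefix 40411 and 0.03 in prefix 40412.

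**Figure D4:**
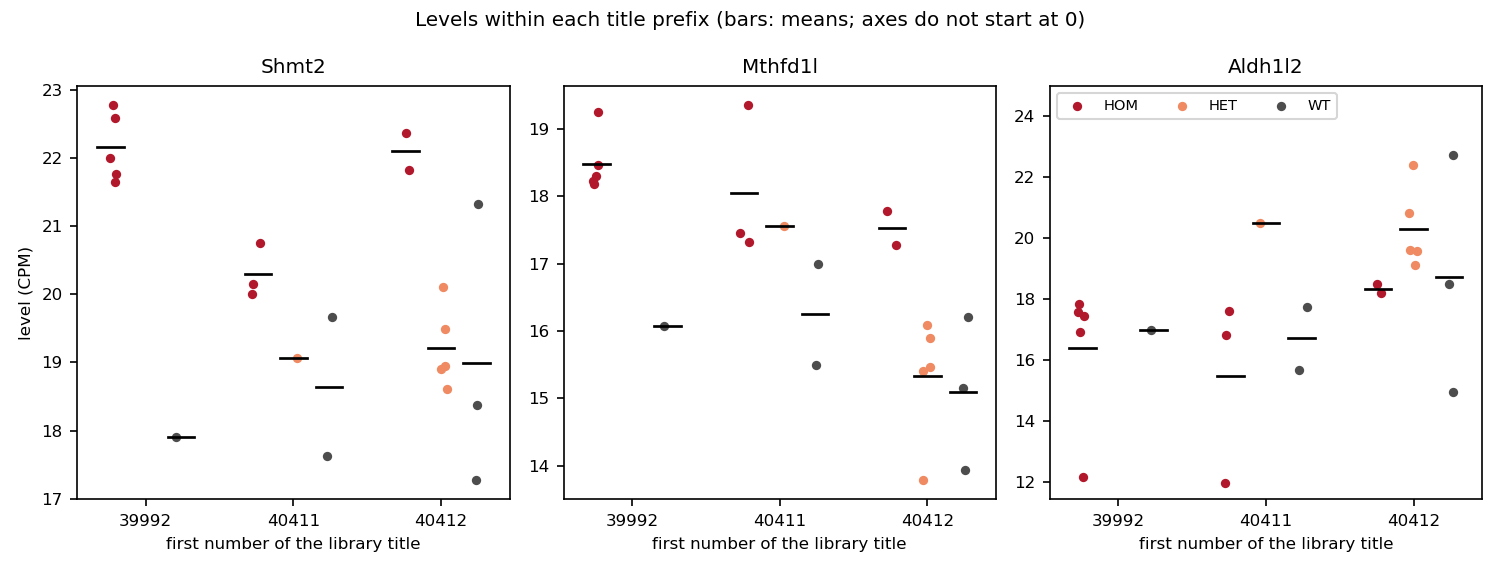
CPM of Shmt2, Mthfd1l and Aldh1l2 in each library (points), by title prefix and genotype, with a line for each mean, on axes that do not start at 0. HOM means of Shmt2 and Mthfd1l are above the WT means in each of the 3 prefixes, and HOM means of Aldh1l2 are below the HET means in the 2 prefixes that hold both.

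Set against each other within a library, the mitochondrial and cytosolic isoenzymes had higher mean TPM ratios in HOM than in WT, with ranges that overlapped. The TPM ratio of Shmt2 to Shmt1 averaged 8.65 ± 1.53 in HOM, 6.85 ± 1.52 in HET and 5.74 ± 1.58 in WT (SD, n = 10, 6 and 6), and the ranges overlapped, 6.03 to 11.2 in HOM and 3.98 to 7.91 in WT. The ratio of Mthfd1l to Mthfd1 averaged 0.315 ± 0.0248 in HOM, 0.278 ± 0.0225 in HET and 0.266 ± 0.0126 in WT, with ranges of 0.265 to 0.350 in HOM and 0.249 to 0.285 in WT. Mthfd2 to Mthfd2l averaged 2.25 in HOM, 2.15 in HET and 2.04 in WT, which is within their SDs of 0.364, 0.223 and 0.319. Summed TPM of the branches was 265 ± 20.7 in HOM, 255 ± 12.6 in HET and 242 ± 16.0 in WT for serine synthesis, where Psat1 and Phgdh set the sum. For mitochondrial folate it was 68.4 ± 3.72 in HOM, 64.6 ± 2.57 in HET and 60.3 ± 3.92 in WT, and for cytosolic folate 31.9 ± 2.61 in HOM, 31.6 ± 2.43 in HET and 32.1 ± 2.404 in WT. No test was made of ratios or sums.

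TPM divides by the length that RSEM gave to a gene, the mean length of its transcripts weighted by their estimated abundance, and for Shmt1, with 11 transcripts, this length enters the ratio to Shmt2. The length of Shmt1 averaged 2389 ± 314 bases in HOM, 2084 ± 386 bases in HET and 1861 ± 170 bases in WT (SD). In a limma fit of log2 length over 10857 genes the HOM against WT difference of Shmt1 was 0.35 (SE 0.10, p = 0.00216) and stood at rank 18, with an adjusted p of 1 by limma. No member passed this test, where 0% of all genes did at an adjusted p under 0.05, and Shmt1 was the only member with an unadjusted p under 0.05, where 4.63% of all genes had one. The mean TPM of Shmt1 was accordingly lower in HOM than in WT, while its mean CPM was 2.62 in HOM and 2.63 in WT. With an offset for effective length in edgeR, the log2 fold change of Shmt1 in HOM against WT and HET libraries was -0.30, against 0.02 without it. At 62 to 140 counts spread over 11 transcripts the split between isoforms is coarse, and the isoforms themselves were not used here.

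Across the 22 libraries the members did not vary as 1 block. The median Pearson r of log2 CPM over the 45 pairs of members was 0.15, and 0.07 with each genotype's mean removed; all these points share library depth and tissue composition, and HOM 3 is among them. Phgdh and Psat1 had the highest r, 0.713, and 0.677 with genotype means removed. Shmt2 and Mthfd1l had r = 0.682, which was 0.134 with genotype means removed, so little of it was left within genotypes. In ranking genes by likeness, those with clone, accession or predicted-gene names, pseudogenes, microRNA genes, Xist and Y-linked genes were passed over. Among the rest, the genes most like Shmt2 over the 22 libraries were Cars (r = 0.831), the cysteinyl-tRNA synthetase, and Slc7a1 (r = 0.82), a carrier of cationic amino acids. Fgf21 (r = 0.814), a secreted metabolic hormone, came next, with means of 3.34 CPM in HOM and 0.0 CPM in WT. With genotype means removed the genes most like Shmt2 were Fiz1 (r = 0.834), Fscn1 (r = 0.802) and Zfpm1 (r = 0.80). The genes most like Mthfd1l were Cry2 and Meis3 (both r = 0.814) and B4galnt4 (r = 0.81), and with genotype means removed B4galnt4 (r = 0.766), Sez6 (r = 0.754) and Slc6a11 (r = 0.754).

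Levels of cell type markers also varied between libraries and genotypes, with none passing in HOM against WT by edgeR, and their part in these results was not tested. The summed level of 4 motor neuron markers was 74.5, 98.0 and 116 CPM in HOM (lowest, median and highest), 100.2, 113 and 135 CPM in HET and 102.4, 112 and 132 CPM in WT. The lowest HOM library was HOM 3. In HOM against WT 2 of the 4 had an unadjusted p under 0.05 by edgeR, both lower, as had 1 of 5 neuron and 1 of 5 oligodendrocyte markers. Of all genes 2.3% had one in the lower direction and 5.91% in either direction. In the higher direction, where 3.62% of all genes had one, so did 4 of 5 Schwann cell, 3 of 3 tested neutrophil and 1 of 3 erythroid markers. HOM 3 held the highest sum of each of these lists. The summed level of 5 oligodendrocyte markers was 14850, 19860 and 21020 CPM in HOM, 20530, 21300 and 22540 CPM in HET and 19210, 21110 and 21860 CPM in WT. That of 7 astrocyte markers was 5315, 6388 and 6805 CPM in HOM, 6513, 6638 and 7523 CPM in HET and 6202, 6706 and 6924 CPM in WT. No list had a member at 0 in every library.
Aldh1l2 had Pearson r of 0.702 with the astrocyte sum over the 21 libraries without HOM 3, and 0.792 over all 22. With the Schwann cell sum its r turned sign with that library, 0.728 without it and -0.46 with it. Phgdh had r of -0.738 with the neuron sum and -0.827 with the motor neuron sum without HOM 3, but -0.182 and -0.31 over all 22 libraries, so the size of both rests on leaving out HOM 3. With the microglia sum the r of Phgdh was 0.609 without HOM 3 and 0.705 over all 22. With the pericyte and smooth muscle sum it was -0.574 and -0.699, and with the astrocyte sum -0.117 and 0.269, in the same order. Mthfd1l had r of -0.661 with the oligodendrocyte sum without HOM 3 and -0.547 over all 22. These pairs of Aldh1l2, Phgdh and Mthfd1l were picked after their values were seen. All but Phgdh with the astrocyte sum were from among the highest in size of each of these genes over the 21 libraries. These values describe libraries that share depth and composition. Genotype means were not removed here, so each r also holds the differences between genotypes. Other members also had pairs of such size, as Mthfd1 with the pericyte and smooth muscle sum (r = -0.679 without HOM 3, -0.564 over all 22).

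Of 60 other genes of serine, folate and methionine metabolism, 55 were tested, and in HOM against WT 31 had a log2 fold change above 0 and 24 below, with none passing by edgeR or DESeq2 and 6 at an unadjusted p under 0.05, where 5.91% of all genes had one. The split moves with the scale: by limma on log2(TPM + 1), which shifts the median of all genes to 0.04, 44 of the 55 were above 0, and again none passed. Among 11 genes of folate supply and interconversion 5 were above 0 and 6 below. Slc19a1, the reduced folate carrier, averaged 17.3 CPM in HOM and 15.7 CPM in WT (0.14, SE 0.0417, adjusted p = 0.588 by edgeR), and Folr1, a folate receptor, 0.395 CPM in HOM and 0.522 CPM in WT (-0.41, adjusted p = 0.815 by edgeR).
Among 8 genes that use folate carbon in purine, thymidylate and formylation reactions, 5 were above 0 and 3 below, with Mtfmt, which formylates mitochondrial initiator tRNA, at -0.09 and Atic, of purine synthesis, at 0.04. Of 9 genes of the methionine cycle and transsulfuration 7 were above 0, with Ahcy, the hydrolase of S-adenosylhomocysteine, at 0.08 and Mtr, methionine synthase, at 0.06. Of 9 genes of glycine cleavage and choline oxidation 5 were above 0, with Dmgdh, dimethylglycine dehydrogenase, at 0.35 (SE 0.269) from a level under 1 CPM, and Pipox at 0.18. Of 18 genes of serine use and transport 9 were above 0, with Slc1a4, a neutral amino acid carrier, at 0.10 and Sfxn3, a sideroflexin, at 0.06. The medians of these 5 lists lay between -0.02 and 0.02, beside 0.20 for the mitochondrial folate members.
In HET against WT, 24 of the 55 were above 0 and 31 below, and in HOM against HET 32 above and 23 below, with none passing in either by edgeR or DESeq2 and 1 at an unadjusted p under 0.05 in each.

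Genes of the ATF4 axis outside the pathway were listed with results of these data known, so their direction is not independent evidence. In HOM against WT all 13 had a log2 fold change above 0, with a median of 0.25, and 7 passed by edgeR, where 0.0943% of all genes did. It was 9 by DESeq2, 7 without HOM 3, 5 with the title prefix as a term, 4 by limma on log2 TPM, and 4 to 8 with single libraries left out. Those 7 were Slc7a1 (0.40), Chac1 (0.55), which degrades glutathione, Atf4 itself (0.23), Cars (0.19), Wars (0.17), the tryptophanyl-tRNA synthetase, Aldh18a1 (0.25), of proline synthesis, and Sesn2 (0.28), a leucine sensor. Pycr1, the last enzyme of proline synthesis, and Slc7a5, a carrier of large neutral amino acids, passed in HOM against WT and HET libraries only, at 0.55 and 0.31. Atf4 averaged 90.6 ± 5.36 CPM in HOM, 85.5 ± 3.86 CPM in HET and 77.3 ± 2.99 CPM in WT. Of the members, Shmt2, Mthfd1l, Psph and Mthfd2 had log2 fold changes of 0.20 to 0.24, between those of Wars and Aldh18a1. Phgdh and Psat1 were at 0.07 and 0.09, Mthfd2l at 0.06, Shmt1 at -0.0091, Mthfd1 at -0.02 and Aldh1l2 at -0.11. The difference between members was not tested.

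**Figure D5:**
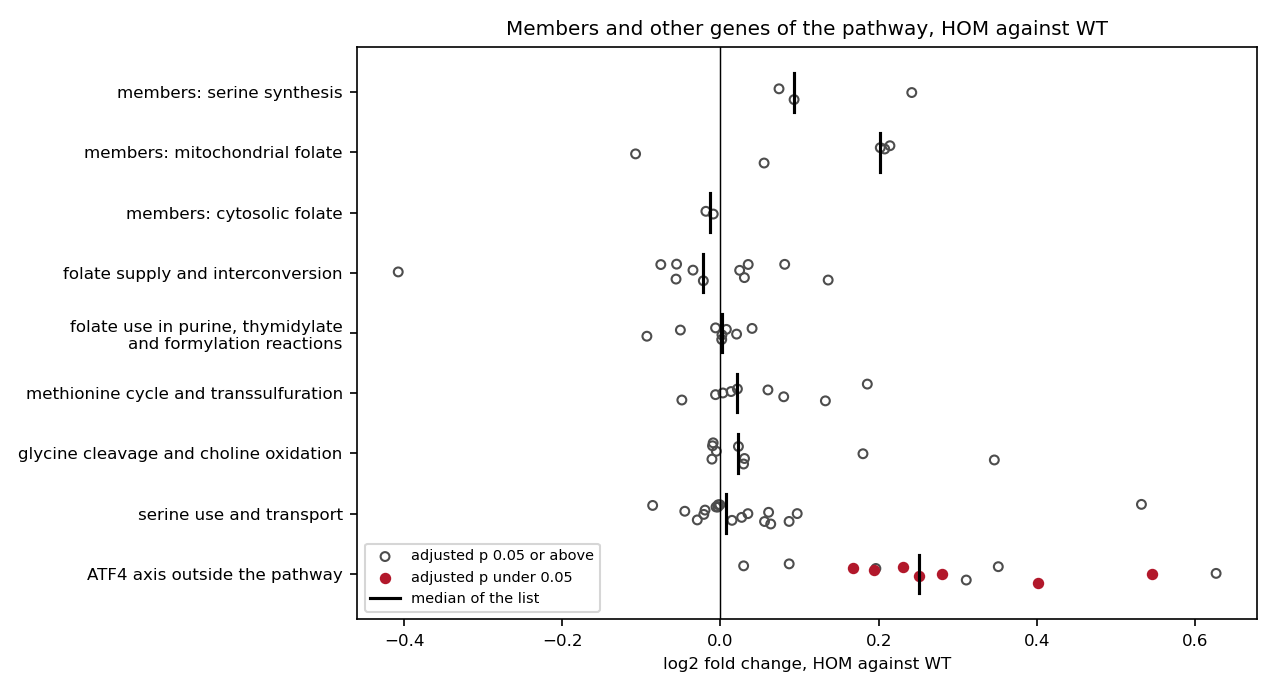
Fitted log2 fold changes in HOM against WT of the members by branch and of the tested genes of the other lists, 1 point a gene, filled where the adjusted p is under 0.05, with a line at each list's median. Filled points occur only in the ATF4 axis list, 7 of 13, and 3 of the 5 mitochondrial folate members, Mthfd2, Shmt2 and Mthfd1l, lie together at 0.20 to 0.21.

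In the GENCODE M21 annotation (GRCm38; the build of the files is not given in the sources used here) 5 members share exonic sequence with a gene on the other strand, and since the strand setting of the counting is not given, reads of such pairs cannot be told apart with certainty. Shmt2 (chr10:127517123-127522444, minus strand) overlaps Ndufa4l2, which averaged 1.98 CPM in HOM, 2.04 CPM in HET and 1.87 CPM in WT, with a log2 fold change of 0.08 in HOM against WT (SE 0.116). Psph (chr5:129765558-129787449, minus strand) overlaps Cct6a, a chaperonin subunit, at 77.9 CPM in HOM, 77.6 CPM in HET and 78.2 CPM in WT. Aldh1l2 (chr10:83487450-83534140, minus strand) overlaps D10Wsu102e, at 28.0 CPM in HOM, 28.8 CPM in HET and 28.8 CPM in WT, with a log2 fold change of -0.04 in HOM against HET. Shmt1 overlaps Smcr8 and Mthfd1 overlaps Gm47525. None of the 4 partners that were tested had an unadjusted p under 0.05 in a pairwise comparison. Mthfd1l (chr10:3973118-4167081, plus strand) overlaps no other exon, as do Mthfd2 (chr6:83305691-83325908, minus strand), Mthfd2l, Phgdh and Psat1. The counts of Phgdh were not whole in 18 of the 22 libraries, since RSEM shared some reads between it and other genes. Of the 5 members with an overlap, Shmt2, Psph and Mthfd1 had such counts in 0 libraries, and Aldh1l2 and Shmt1 in 2 each. The assignment of reads within the overlaps was not tested.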

How the data were processed

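The members and all gene lists were chosen with earlier results of these data known. For each library the authors deposited an RSEM gene table with expected counts, TPM, FPKM and lengths, per the file headers. RSEM 1.2.12 and Bowtie2 2.2.0 stand in the submitters' processing notes; no build, annotation or strand setting is given there. Libraries were polyA-selected with stranded kits, per the labels' protocols. Deposited expected counts were rounded to whole numbers (24448477 to 42805931 per library; 14.41% to 16.23% of values per library were not whole within 0.001) and fitted over all 22 libraries with edgeR 4.0.16 in R 4.3.3: filterByExpr by genotype, TMM, robust quasi-likelihood F tests, Benjamini-Hochberg adjustment over 16974 genes, called at 0.05. Standard errors and intervals were derived from the F statistics. Deposited TPM served for levels between genes and, with pseudocounts of 1 and 0.1, for limma 3.58.1; the FPKM were not used. Log2 RSEM length was fitted with limma over 10857 genes of sufficient count whose length varied. Named were the 10 members, Yars, Atf4, the 2 genes with the smallest p of each list, each called list gene, and the 3 genes most like each called member; 5 promoter motifs were searched, 3 of them chosen after the data were seen. Other genes named are overlapping partners. Scripts were tested on simulated data. Alternatives were RLE scaling, other low-count filters, DESeq2 1.42.0, limma on TPM, a length offset, the title prefix as covariate, only the groups compared, and each library left out. Each member had at least 62 counts in every library, so counting error, which depth sets, was largest for Shmt1.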

Additional observations from a re-analysis of the deposited data

Results flagged for a closer look

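Of 30 groups of libraries (10 genes in 3 genotypes), 4 held a library far from the others of its genotype by Dixon's criterion at the 95% level, where chance flags about 1 group in 20. Psat1 was at 155.1 CPM in HOM 3, where the other HOM libraries had 198.3 to 219.4 CPM; this is the library with the high Schwann cell and neutrophil markers, and the part of those cells in the value was not tested. Psat1 was at 208.2 CPM in WT 2, where the other WT libraries had 183.3 to 191.5 CPM. Psph was at 10.05 CPM in WT 3, where the other WT libraries had 10.76 to 11.15 CPM. Mthfd1 was at 59.64 CPM in HOM 8, where the other HOM libraries had 48.05 to 54.17 CPM.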

How the results depend on the processing

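Over 9 settings (8 for HOM against WT and HET libraries) and 22 omissions of 1 library, 1179 of 1230 member log2 fold changes kept their direction and their side of the threshold. The count of members called in HOM against WT, 0 by the edgeR test, was 1 with a mean of at least 1 CPM required, 2 with DESeq2 and 0 to 1 with single libraries left out. In HOM against HET, 0 by the edgeR test, it was 2 with DESeq2 and 0 to 1 with single libraries left out. In HOM against WT and HET libraries, 2 by the edgeR test, it was 0 with limma on log2 TPM at either pseudocount and 0 with the title prefix as covariate; the cause was not tested. Over all genes, DESeq2 called 28, 76 and 82 in these 3 comparisons, where the edgeR test called 16, 18 and 40; with the 1 CPM filter edgeR called 11 in HOM against HET, with the title prefix 10 in HOM against HET and 16 in HOM against WT and HET libraries, with limma on log2 TPM 11 in HOM against HET and 15 to 16 in HOM against WT and HET libraries, and with single libraries left out 10 to 39 in HOM against HET. Signs turned in 33 values, all of genes whose log2 fold change in the edgeR test was close to 0. The turned values were not all close to 0, since Shmt1 reached -0.30 with the length offset. In HOM against WT, Shmt1 was at 0.0378 with the title prefix and -0.0547 to 0.0601 with single libraries left out, and Mthfd1 at 0.0189 and 0.0195 with limma on log2 TPM (pseudocounts 1 and 0.1) and 0.0036 with the prefix. In HET against WT, Mthfd2l was at 0.0351 and 0.0381 with limma on log2 TPM and -0.0287 to 0.0252 with single libraries left out, Mthfd1l at -0.0011 with the 1 CPM filter, -0.0013 with DESeq2, -0.0015 with only the groups compared and -0.0311 to 0.0401 with single libraries left out, Psat1 at -0.0067 to 0.0429 and Shmt1 at -0.11 to 0.0041 with single libraries left out. In HOM against HET, Shmt1 was at -0.13 and -0.18 with limma on log2 TPM and -0.19 with the length offset, and in HOM against WT and HET libraries at -0.19, -0.26 and -0.30 in the same order and -0.0060 to 0.0580 with single libraries left out; those scales divide by the RSEM length. Mthfd1 was there at -0.0117 to 0.0228 with single libraries left out. No paired analysis was possible because the labels give no replicate numbers. Depth limits Shmt1 most, the member with the fewest counts.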
